A study of Bos taurus with 92 samples.

Results

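The genes described here are 8 genes of cholesterol and lipid metabolism, LSS, FDPS, EBP, MSMO1, ACLY, ACSL1, MYLIP and ABCA1, measured in single bovine blastocysts. They were chosen by name, as the probes whose gene symbol is one of these 8, and are 8 of the 4398 named genes that could be tested. The choice of these 8 and of the gene lists used further below was made with earlier results of these data known. Their shares of calls are therefore descriptions. A single probe measured each of 6 of them, 2 probes measured ACLY and 4 measured ABCA1. All 8 had enough values to be tested. The 44 embryos came from artificial insemination (AI, 14 embryos), fertilisation in vitro (IVF, 15 embryos) or nuclear transfer (NT, 15 embryos), in which the nucleus of a somatic donor cell is placed in an oocyte. The same array measured 2 samples of donor cells, and the series title names the examination of nuclear reprogramming as the aim. A mark precedes some embryo numbers: H in 3 AI embryos (H1, H3 and H5), 2_ in 8 NT embryos and 3_ in the other 7, and no label says what these marks stand for. The labels give neither breed, culture nor age of the embryos, nor the tissue, passage or number of donor animals, and all embryos of a kind may share a sire, a donor cell line or a day of work.

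Each embryo or cell sample was hybridised against one common reference RNA on 2 arrays, with the dyes exchanged. A level below is the log2 of the sample over the reference, relative to the median probe of its array, averaged over both dyes. No source used here states the direction of the ratio, which was read as Cy5 over Cy3. Read this way, the collagen gene COL1A2 had a mean of 1.46 in donor cells and of -3.80 to -3.73 in the kinds of embryo. The epithelial keratin KRT8 had a mean of -3.80 in donor cells and of 1.62 to 1.97 in embryos. By their means, 9 of 10 measured fibroblast markers were lower in each kind of embryo than in donor cells, and THY1 was higher. Of 15 measured markers of the trophectoderm, the outer cell layer, 13 were higher in AI, 12 in IVF and 11 in NT embryos. TFAP2A and GATA3 were lower in every kind of embryo than in donor cells. Turned, these markers and all differences below would have the opposite sign. Levels of different probes cannot be set against each other, because each is relative to the amount of its own transcript in the reference.

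Cholesterol is built from acetyl-CoA through isoprenoids and then sterols. FDPS makes farnesyl diphosphate, the branch point to sterols and to protein prenylation; LSS closes squalene epoxide into lanosterol, the first sterol; MSMO1 removes methyl groups from later sterols and EBP moves a double bond. ACLY supplies cytosolic acetyl-CoA from citrate for sterol and fatty acid synthesis, and ACSL1 couples long-chain fatty acids to coenzyme A. Sterol enzymes are switched on by SREBP transcription factors when sterols are scarce, whereas MYLIP, a ubiquitin ligase that removes the LDL receptor, and ABCA1, a cholesterol exporter, are targets of the oxysterol receptors LXR and are switched on when sterols are plentiful.

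As facts of the whole series, array medians ran from -2.14 to 0.862 as deposited, the arrays of one embryo correlated with r of 0.565 to 0.743 after their signs were turned alike, and 1.09% to 10.3% of the spots of an array had no value. Centring on the array median matters for directions. Without it the median of all genes differed by 0.44 for NT minus AI and by 0.38 for NT minus IVF, and every difference below is relative to that shift. As deposited, NT minus AI gave 1978 genes called above and 19 below 0, against 167 and 188 after centring. NT minus IVF gave 1710 above and 45 below 0 as deposited, against 612 and 454 after centring. Of 10 measured fibroblast markers the mean level was 0.707 and 0.740 in the donor cell samples and -2.49 to -1.77 in the embryos. Of 15 measured trophectoderm markers, the outer cell layer of a blastocyst, it was -0.352 and -0.137 in donor cells and 0.862 to 2.20 in embryos. The trophectoderm markers CDX2 and IFNT and the inner cell mass markers POU5F1, NANOG and SOX2 were not measured.

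NT and IVF embryos differed most in these genes. LSS, FDPS, MSMO1, ACLY, ACSL1 and MYLIP were all lower in NT embryos, and EBP and ABCA1 did not pass the test. Thus 6 of 8 members fell and none rose, with a median difference of -0.91, where 10.3% of all genes fell and 13.9% rose and the median of all genes was -0.000483. On the deposited scale 4 members fell and 2 rose in NT embryos, ABCA1 by 0.69 (adjusted p = 0.000237) and EBP by 0.57 (adjusted p = 0.0499).

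LSS ran from -1.97 to -0.26 in the 15 NT embryos, with a median of -1.26, and from -1.08 to 1.46 in the 15 IVF embryos, with a median of -0.10. All NT embryos lay below the IVF median, and 9 lay below the lowest IVF embryo. The difference was -1.25 ± 0.22 (log2, standard error, limma adjusted p = 4.04e-05), a 2.38-fold lower level.

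FDPS ran from -2.01 to 0.32 in NT embryos, with a median of -0.99, and from -0.90 to 1.19 in IVF embryos, with a median of 0.30. The groups overlapped, with 10 NT embryos below the lowest IVF embryo. FDPS fell by 1.12 ± 0.24 (adjusted p = 0.000516). MSMO1, with medians of -0.37 in NT and 1.30 in IVF embryos, fell by 1.34 ± 0.34 (adjusted p = 0.00242), and 7 NT embryos lay below the lowest IVF embryo. The embryo labelled 2_3, at 1.68, stood apart at the top of the NT embryos.

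MYLIP, the ligase that acts against LDL receptor uptake, had the largest difference of all 4398 genes in this comparison. Its level ran from -4.81 to -0.92 in NT embryos, with a median of -2.74, and from -1.77 to 0.32 in IVF embryos, with a median of -0.87. Of the 15 NT embryos 13 lay below the lowest IVF embryo. The difference was -2.13 ± 0.29 (adjusted p = 4.77e-07), a 4.37-fold lower level in NT embryos. MYLIP thus fell in the same comparison as the sterol enzymes LSS, FDPS and MSMO1.

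Of the enzymes of acyl supply, ACSL1 fell by 0.71 ± 0.20 (adjusted p = 0.00825) and ACLY by 0.47 ± 0.12 (adjusted p = 0.00206) in NT against IVF embryos. All 15 NT embryos lay below the IVF median in each gene. On the deposited scale these 2 differences shrank to -0.33 (adjusted p = 0.306) and -0.09 (adjusted p = 0.723), whereas LSS, FDPS, MSMO1 and MYLIP stayed past the threshold at -0.87, -0.73, -0.96 and -1.75. The mean of the 15 trophectoderm markers was lower in NT embryos as well. Its median over embryos was 1.55 (0.862 to 1.83) against 1.89 (1.49 to 2.13) in IVF embryos. Of these markers 7 were called lower and 1 higher in NT embryos, where 10.3% of all genes fell and 13.9% rose. The part of these markers in the differences of the members was not tested. Within single embryos, fewer cells of a type and less RNA per cell cannot be told apart.

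**Figure D1:**
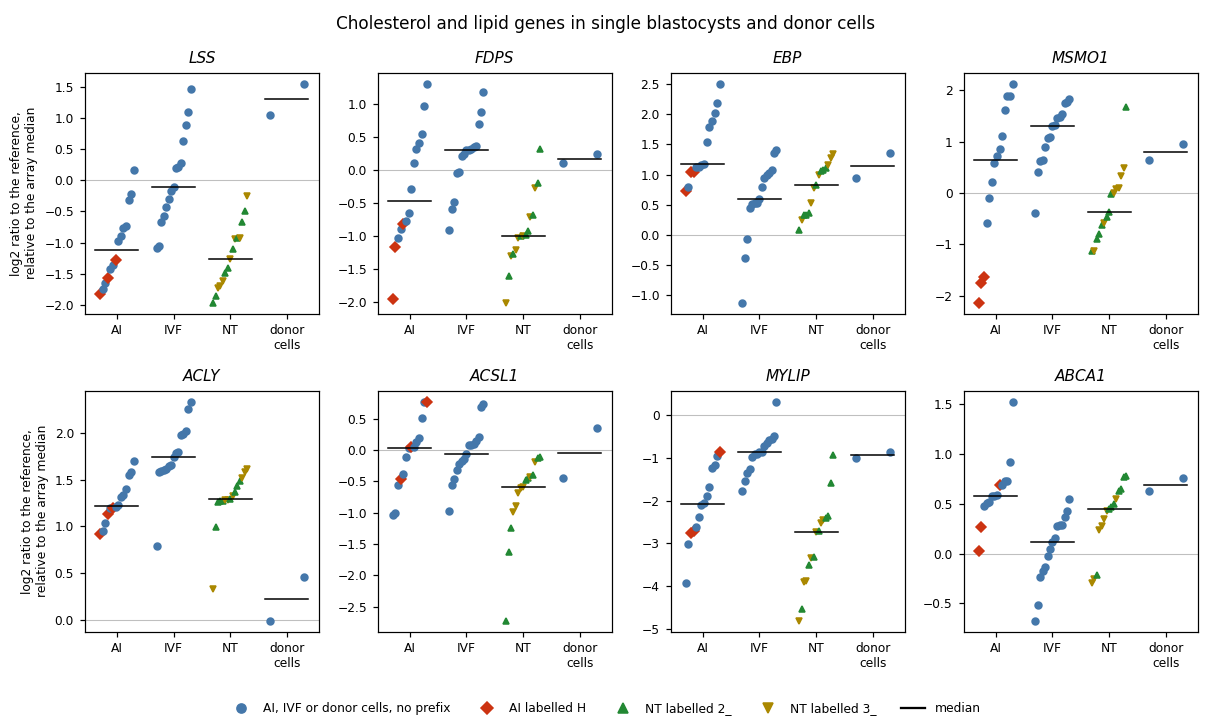
Level of each gene in every embryo and donor cell sample, as log2 ratio to the reference RNA relative to the array median; each point is 1 sample, sorted within its kind, and black lines are medians. In MSMO1 the 3 embryos labelled H lie below all other AI embryos, and in MYLIP 13 of 15 NT embryos lie below the lowest IVF embryo.

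AI and IVF embryos also differed, but the members went both ways. LSS, ACLY and MYLIP were higher in IVF embryos, EBP and ABCA1 were lower, and FDPS, MSMO1 and ACSL1 did not pass the test. The 3 rises and 2 falls among 8 members compare with 13.9% of all genes that rose and 15.6% that fell. By single probes, ABCA1 was called in the probe of spots 7349 and 7350 alone. ACLY was called in the probe of spots 12961 and 12962 alone, as in NT against IVF embryos. The ACLY call was kept in 8 of 11 other settings and the ABCA1 call in 9 of 11.

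LSS ran from -1.83 to 0.16 in the 14 AI embryos, with a median of -1.13, and 7 IVF embryos lay above the highest AI embryo. LSS rose by 1.07 ± 0.23 (adjusted p = 0.000335), 2.10-fold. MYLIP ran from -3.92 to -0.85 in AI embryos, with a median of -2.07, and rose by 1.22 ± 0.30 in IVF embryos (adjusted p = 0.00147), with 6 IVF embryos above the highest AI embryo. EBP, the sterol isomerase, went the other way, from 0.72 to 2.51 in AI embryos (median 1.17) and from -1.12 to 1.40 in IVF embryos (median 0.59). It fell by 0.86 ± 0.20 (adjusted p = 0.000887), and all 14 AI embryos lay above the IVF median. EBP and LSS are enzymes of one pathway, and their calls between the same 2 kinds of embryo were opposite in sign.

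FDPS differed by 0.47 ± 0.25 (IVF minus AI, adjusted p = 0.152) and MSMO1 by 0.78 ± 0.34 (adjusted p = 0.0813), with 95% intervals of -0.03 to 0.97 and 0.09 to 1.47. Without H1, H3 and H5 the MSMO1 difference was 0.18 and the FDPS difference 0.19. ACSL1 showed the smallest difference of the 8, 0.01 ± 0.21 (95% interval -0.40 to 0.43).

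NT and AI embryos lay closer together. EBP, ACSL1 and MYLIP fell in NT embryos, none of the 8 rose, and the median difference was -0.61, where 4.27% of all genes fell and 3.8% rose. EBP ran from 0.08 to 1.34 in NT embryos (median 0.83) and fell by 0.67 ± 0.20 (adjusted p = 0.0294). ACSL1 ran from -2.72 to -0.11 in NT embryos (median -0.59) and from -1.03 to 0.77 in AI embryos (median 0.04), a fall by 0.69 ± 0.21 (adjusted p = 0.0296). MYLIP fell by 0.91 ± 0.30 (adjusted p = 0.0471). The ranges of NT and AI embryos overlapped in all 3 genes. Of the 15 trophectoderm markers 3 were called lower and none higher in NT than in AI embryos, with a mean level of 0.862 to 1.83 in NT, 1.57 to 1.76 in H and 1.58 to 2.20 in the other AI embryos, and their part was not tested.

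These 3 calls were near the threshold. None was kept on the deposited scale, where EBP, ACSL1 and MYLIP differed by -0.26, -0.28 and -0.50, and among fits that left out 1 embryo MYLIP was called in 11 of 29, ACSL1 in 24 and EBP in 28, with MYLIP at an adjusted p of 0.0848 at most. The level of LSS differed by -0.18 ± 0.23 (adjusted p = 0.683), and of ACLY by 0.02 ± 0.12 (adjusted p = 0.947). FDPS differed by -0.65 ± 0.25 (adjusted p = 0.0931), MSMO1 by -0.57 ± 0.34 (adjusted p = 0.322) and ABCA1, the mean of 4 probes, by -0.27 ± 0.13 (adjusted p = 0.186).

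**Figure D2:**
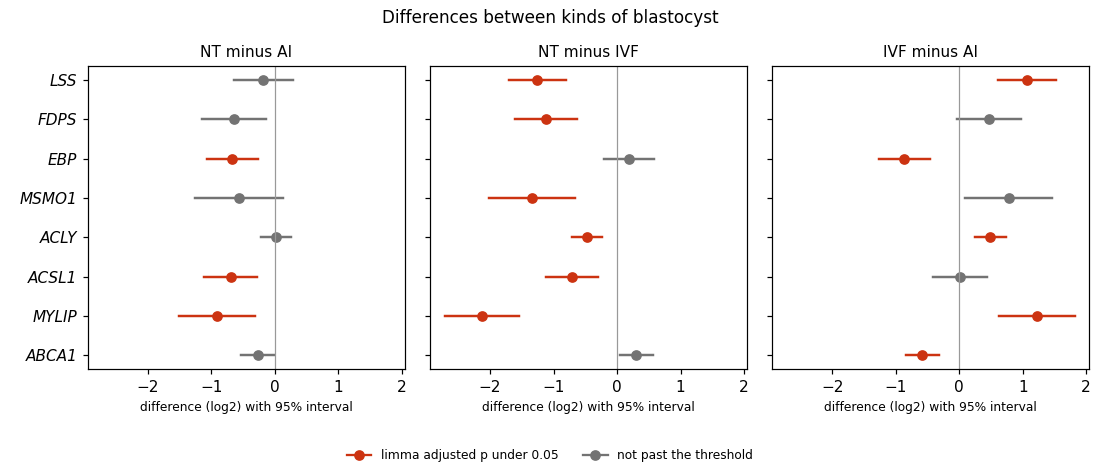
Differences of the 8 genes in the 3 comparisons between kinds of embryo, as log2 difference with its 95% interval from the limma model; red marks an adjusted p under 0.05. NT minus IVF has 6 red points, all below 0, and IVF minus AI has 3 above and 2 below 0.

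By level, the genes therefore fell into different orders. LSS, ACLY and MYLIP were highest in IVF embryos, and between AI and NT embryos LSS and ACLY did not differ beyond their spread. EBP was highest in AI embryos, and IVF and NT embryos were not separated (0.19 ± 0.20, adjusted p = 0.521). ACSL1 was lowest in NT embryos, with AI and IVF embryos not separated. FDPS and MSMO1 ran from IVF through AI to NT by their means, with only IVF and NT separated. Without H1, H3 and H5, NT and AI embryos were separated too, with MSMO1 at -1.16 (NT minus AI, adjusted p = 0.00535) and FDPS at -0.93 (adjusted p = 0.0107).

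Donor cells were a second point of reference, with only 2 samples. LSS stood at 1.05 and 1.56 in donor cells, above every NT and AI embryo. It fell by 2.53 ± 0.46 in NT embryos (adjusted p = 1.87e-05), by 2.35 ± 0.47 in AI embryos (adjusted p = 5.87e-05) and by 1.28 ± 0.46 in IVF embryos (adjusted p = 0.0279). The last call was lost without either donor cell sample.

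ACLY stood at -0.01 and 0.45 in donor cells and was higher in all kinds of embryo, by 1.07 ± 0.24 in NT (adjusted p = 0.000346), 1.54 ± 0.24 in IVF (adjusted p = 1.02e-06) and 1.05 ± 0.24 in AI embryos (adjusted p = 0.000433). MYLIP, at -0.99 and -0.85 in donor cells, fell by 2.08 ± 0.60 in NT embryos (adjusted p = 0.0052), which no longer passed when either donor cell sample was left out. The NT and AI calls for ACLY were lost without donor cell sample 8 (0.84, adjusted p = 0.0593, and 0.81, adjusted p = 0.0639). Against donor cells 1 member rose and 2 fell in NT embryos (20.1% and 15.4% of all genes), 1 rose and 1 fell in IVF embryos (18.5% and 15.8%), and 1 rose and 1 fell in AI embryos (20.4% and 16.6%). As deposited, 830 genes were higher and 374 lower in NT embryos than in donor cells, 407 and 627 in IVF embryos, and 472 and 691 in AI embryos, against 882 and 676, 812 and 696, and 898 and 729 after centring.

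ABCA1 cannot be read as one value, because its 4 probes disagreed. With the mean of each kind taken off, the r between them was -0.35 to 0.18, over 44 embryos for 3 of the 6 pairs and over 32 for the 3 pairs with the probe of spots 6067 and 6068. The gene mean was lower in IVF than in AI embryos by 0.58 ± 0.13 (adjusted p = 0.000571), and only 1 of the 4 probes was called in that comparison.

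The probe of spots 7349 and 7350 ran from 0.26 to 3.83 in AI embryos (median 2.14), from -1.48 to 1.22 in IVF embryos (median -0.07) and from -0.43 to 2.30 in NT embryos (median 1.29). It was lower in IVF than in AI embryos by 2.18 ± 0.31 on the log2 scale (adjusted over 7992 probes, p = 6.09e-07), and higher in NT than in IVF embryos by 1.32 ± 0.30 (adjusted p = 0.000904). The probe of spots 7473 and 7474 instead separated donor cells, at 2.28 and 2.81, from all embryos, which lay between -1.67 and 0.30, by -3.21 to -3.11. The probes of spots 1645 and 1646 and of spots 6067 and 6068 gave no call in any comparison between kinds or with donor cells.

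ACLY's 2 probes correlated with r = 0.68. The probe of spots 12961 and 12962 was lower in NT than in IVF embryos by 0.77 ± 0.12 (adjusted p = 7.28e-06) and higher in IVF than in AI embryos by 0.71 ± 0.12 (adjusted p = 2.27e-05). The other probe gave differences of -0.18 ± 0.13 (adjusted p = 0.362) and 0.28 ± 0.13 (adjusted p = 0.119).

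**Figure D3:**
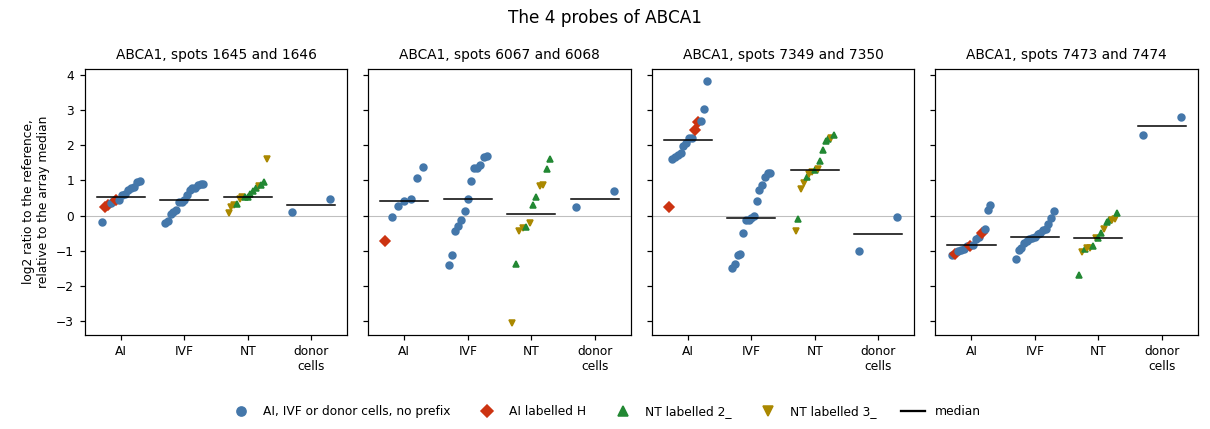
Level of each of the 4 ABCA1 probes in every sample, as log2 ratio to the reference relative to the array median, with black lines at medians. The third probe (spots 7349 and 7350) is lowest in IVF among the embryos, with a median of -0.07 against 2.14 in AI, and the fourth (spots 7473 and 7474) is high in donor cells alone.

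The 3 AI embryos labelled H were compared with the 11 other AI embryos. MSMO1 was the only member called, and 0.592% of 4393 genes fell and 0.296% rose in this comparison. H1, H3 and H5 stood at -1.75, -2.13 and -1.64, and the other AI embryos ran from -0.59 to 2.13, with a median of 0.86, so that the groups did not overlap. MSMO1 fell by 2.78 ± 0.45 (adjusted p = 0.000623), a 6.86-fold lower level and the second largest difference of all genes.

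The other sterol enzymes were lower by their means in the H embryos without passing the test. FDPS stood at -1.17, -0.81 and -1.96 (difference -1.32 ± 0.39, adjusted p = 0.0999), LSS at -1.83, -1.57 and -1.29 (-0.66 ± 0.39, adjusted p = 0.571) and EBP at 1.04, 0.72 and 1.05 (-0.64 ± 0.34, adjusted p = 0.511). In rank, H1 and H3 were among the lowest 5 of the 14 AI embryos for all 4 sterol enzymes and H5 for 3 of them. At the other end, embryo 7 was the highest AI embryo in all 4.

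CPT1A, which commits fatty acids to oxidation in mitochondria, was the only other gene of the lipid lists called here. It stood at 0.73, 1.25 and 0.89 in H1, H3 and H5 and between -2.05 and 0.28 in the other AI embryos, and rose by 1.88 ± 0.38 (adjusted p = 0.00572). Without H3 its adjusted p was 0.0829. Members outside sterol synthesis showed differences of -0.39 to 0.25 between H and other AI embryos. The primitive endoderm markers GATA6 and APOA1 had a mean level of 0.786 to 1.57 in the H embryos and of -0.834 to 1.74 in the others, and the trophectoderm mean was 1.57 to 1.76 against 1.58 to 2.20; their part in the result was not tested.

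NT embryos labelled 2_ and 3_ gave no call in any member, and 0% of all genes passed in either direction (limma, 344 of 4398 at an unadjusted p under 0.05). MYLIP had the largest difference of the 8, 0.71 ± 0.41 (2_ minus 3_, adjusted p = 0.676).

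Whether the members moved together was asked within each kind of embryo, over 28 pairs of genes in each of 3 kinds, with permutation p values adjusted over all 84 pairs. In AI embryos the 4 sterol enzymes correlated with each other, with r from 0.64 to 0.85 over the 6 pairs, and 3 pairs passed. FDPS and MSMO1 gave r = 0.85 (permutation p = 0.0001, adjusted p = 0.0084) and Spearman's rho = 0.85 (permutation p = 0.00027, adjusted p = 0.0227). LSS and MSMO1 gave r = 0.78 (permutation p = 0.00123, adjusted p = 0.0344) and rho = 0.82 (permutation p = 0.00079, adjusted p = 0.0332). LSS and FDPS gave r = 0.78 (permutation p = 0.00104, adjusted p = 0.0344) and rho = 0.72 (permutation p = 0.00519, adjusted p = 0.0736).

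The H embryos did not carry this relation alone. Over the 11 AI embryos without them, r for the 3 pairs was 0.86, 0.83 and 0.81, and each passed. From the Cy3 arrays alone, and with the first gene from Cy5 and the second from Cy3 arrays, only FDPS and MSMO1 passed. Without the 2 embryos farthest from the median of the first gene, r was 0.79, 0.70 and 0.65. For all 6 pairs r was 0.47 to 0.86 without the H embryos. Over all pairs of genes in AI embryos, r ran from -0.96 to 0.99, with a median of 0.002. The share of them that reached the r of the sterol enzymes was not counted.

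In NT embryos the same 6 pairs were all positive, with r from 0.35 to 0.49, and none passed after adjustment. In IVF embryos 3 pairs were positive and 3 negative, with r from -0.38 to 0.41, and none passed. FDPS and MSMO1, at 0.85 in AI embryos, gave r = 0.04 in IVF and 0.39 in NT embryos. The difference of these correlations between kinds of embryo was not tested.

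No pair with ACLY, ACSL1, MYLIP or ABCA1 passed. None of the 22 pairs that hold at least 1 of them was called in any kind of embryo, and their r ran from -0.56 to 0.50. The pairs with ABCA1 show nothing about that gene, because its value is a mean of probes that disagree. MYLIP, which fell beside LSS, FDPS and MSMO1 in NT against IVF embryos, had r with these 3 enzymes of 0.38, 0.38 and 0.24 in AI, 0.39, -0.14 and 0.03 in IVF, and -0.19, 0.18 and -0.38 in NT embryos. On the averaged dyes, the pairs called were thus among 3 sterol enzymes in AI embryos, and FDPS with MSMO1 was the one called in all 7 other settings run for AI embryos. The pairs with MSMO1 carry a limit too, because its values were nearly those of the neighbouring NFATC4 probe (r = 0.98, below). FDPS followed MSMO1 and NFATC4 alike, with r of 0.61 and 0.60 over all 44 embryos. The part of that neighbouring probe in these pairs was not tested.

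**Figure D4:**
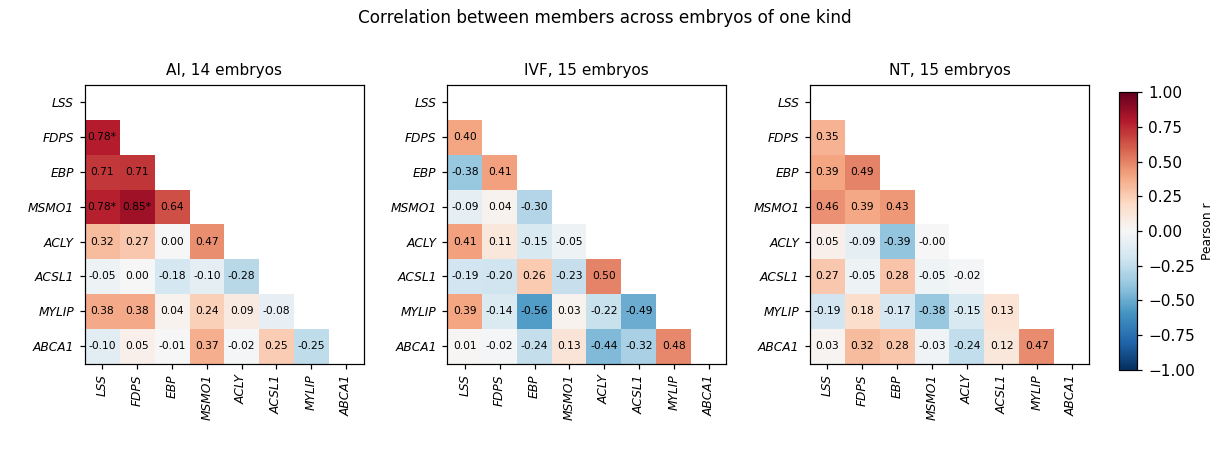
Pearson r between each pair of the 8 genes across the embryos of one kind, with asterisks where the permutation p adjusted over 84 pairs is under 0.05. The block of the first 4 genes is 0.64 to 0.85 in AI, -0.38 to 0.41 in IVF and 0.35 to 0.49 in NT embryos.

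Both dye orientations gave a check on how well each gene was measured. Across the AI embryos the level from the Cy5 arrays and that from the Cy3 arrays correlated with r = 0.98 for MSMO1, 0.94 for MYLIP, 0.92 for FDPS, 0.84 for ACSL1, 0.83 for EBP, 0.80 for LSS and 0.51 for ACLY, against a median of 0.51 over all genes. ABCA1 gave 0.53 in AI, -0.31 in IVF and 0.30 in NT embryos. In AI embryos the spread of MSMO1 between embryos (SD 1.42) exceeded that of 99.8% of all genes, and without the H embryos (SD 0.885) that of 93.2%. ACLY was among the steadiest, with an SD of 0.232.

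The genes most like each member were sought over the 44 embryos, with the mean of each kind taken off, among 4230 genes. FDPS was nearest to MSMO1 (r = 0.61), NFATC4 (0.60) and NSDHL (0.58), of which NSDHL is a sterol enzyme outside the 8. Without the H embryos these r were 0.48, 0.47 and 0.60, so that NSDHL was the highest of the 3. LSS was nearest to BNIP3 (0.54), FDPS (0.52) and MRPS27 (0.52), and EBP to TMEM86A (0.61), NUCB1 (0.60) and DOCK6 (0.60). MYLIP was nearest to SOCS6 (0.59), ACSL1 to M6PR (0.51) and ACLY to ANKRD1 (0.52). Among the sterol enzymes, EBP had r = 0.53 with FDPS (rank 11 of 4230 for EBP), 0.30 with MSMO1 (rank 290) and 0.11 with LSS (rank 1247).

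MSMO1 and NFATC4 were almost inseparable. Their r was 0.98 over the 44 embryos and 0.97 over the 41 without H, as high as the agreement of MSMO1 between its own dyes in AI embryos. NFATC4 encodes a calcium-regulated transcription factor, and its probe (spots 2987 and 2988) comes next after that of MSMO1 (spots 2985 and 2986) in the ID order of the array. Like MSMO1, NFATC4 was lower in the H embryos, at -1.26 to -1.12 against -0.57 to 1.40 in the other AI embryos (-1.71 ± 0.33, adjusted p = 0.00347), and in NT against IVF embryos (-0.83 ± 0.23, adjusted p = 0.00559).

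Probes next to each other in the ID order were somewhat alike in general, with a median r of 0.142 over 7731 pairs, against 0.0349 for probes 100 places apart. Only 8 neighbouring pairs exceeded 0.9, and MSMO1 with NFATC4 ranked first. The ABCA1 probe of spots 7349 and 7350 likewise followed its neighbour PHLDA1 (spots 7351 and 7352), with r = 0.78 (rank 65 of these pairs), and that PHLDA1 probe was also lower in IVF than in AI embryos, by 1.20 ± 0.28 (adjusted p = 0.00106). For the other members r with either neighbour lay between -0.10 and 0.51. The part of the neighbouring spots in the values of MSMO1 and of this ABCA1 probe was not tested.

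**Figure D5:**
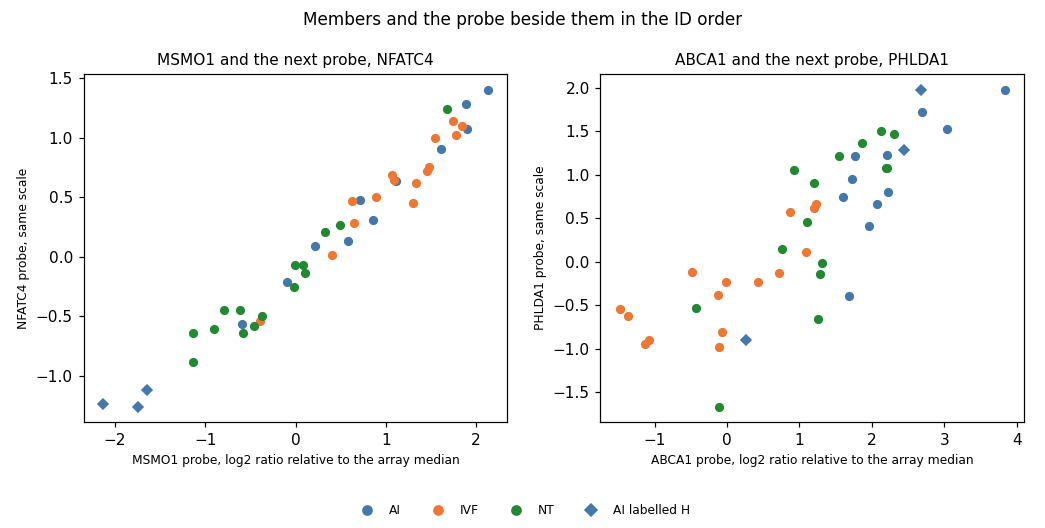
Level of MSMO1 against NFATC4 and of the ABCA1 probe of spots 7349 and 7350 against PHLDA1, the next probe in the ID order, as log2 ratio relative to the array median; each point is 1 of 44 embryos. The points follow a line for MSMO1 (r = 0.98 with the mean of each kind taken off) and a broader band for ABCA1 (r = 0.78).

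The rest of the pathway was read from 4 lists of genes. Of 22 genes of sterol synthesis 9 were measured, 5 of them besides the 4 members. GGPS1, which draws farnesyl diphosphate into the geranylgeranyl branch, was the only other one called between kinds of embryo, higher in NT than in IVF embryos by 0.57 ± 0.17 (adjusted p = 0.0116) and lower in IVF than in AI embryos by 0.62 ± 0.17 (adjusted p = 0.00545), opposite to LSS. Without the H embryos the latter gave -0.44 (adjusted p = 0.0511). ACAT2, IDI1, LBR and NSDHL passed in no comparison between kinds. NSDHL differed by -0.41 ± 0.23 between NT and IVF embryos (adjusted p = 0.198).

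Of 24 genes of sterol control, uptake and export 11 were measured. Besides MYLIP, 3 passed in NT against IVF embryos. INSIG2, which holds SREBP back when sterols are plentiful, was higher in NT embryos by 0.95 ± 0.19 (adjusted p = 0.00014), and SOAT1, which esterifies cholesterol for storage, by 0.84 ± 0.17 (adjusted p = 0.000163). INSIG2 was also lower in IVF than in AI embryos by 0.84 ± 0.19 (adjusted p = 0.000597), and SOAT1 was higher in NT than in AI embryos by 0.66 ± 0.17 (adjusted p = 0.00973). NPC1, a carrier of cholesterol out of lysosomes, differed by -0.33 ± 0.12 in NT against IVF embryos (adjusted p = 0.0448) and turned to 0.06 on the deposited scale. That call was kept in 6 of 11 other settings and in 14 of 30 fits that left out 1 embryo. NPC1 rose by 0.41 ± 0.12 in IVF over AI embryos (adjusted p = 0.0106), kept in 8 of 11 other settings, with 0.063 as the lowest difference. NPC2 fell by 0.48 ± 0.18 in IVF against AI embryos (adjusted p = 0.0334), a call kept in 6 of 11 other settings and in 21 of 29 fits that left out 1 embryo. SREBF1, the only SREBP gene measured, differed by -0.09 ± 0.31 between NT and IVF embryos (adjusted p = 0.868).

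Of 27 genes of fatty acid and glycerolipid synthesis 11 were measured, and 7 fell and 1 rose in NT against IVF embryos, with a median of -0.47, where 10.3% of all genes fell and 13.9% rose. Besides ACLY and ACSL1, the falls were in ME1, which makes NADPH for lipid synthesis (-0.76 ± 0.23, adjusted p = 0.0118), PLIN2, the coat protein of lipid droplets (-0.59 ± 0.13, adjusted p = 0.000678), ELOVL1, a fatty acid elongase (-0.53 ± 0.14, adjusted p = 0.005), FABP5, a fatty acid carrier (-0.63 ± 0.23, adjusted p = 0.043), and AGPAT1, an acyltransferase of phosphatidic acid synthesis (-0.37 ± 0.10, adjusted p = 0.00451). None of these 5 passed on the deposited scale, where AGPAT1 turned to 0.02. ME1 was far lower in every embryo than in donor cells, at 0.78 and 1.00. Its medians were -4.29 in AI, -3.63 in IVF and -4.31 in NT embryos. The IVF embryos spread most in ME1, from -4.55 to -1.05, against -5.02 to -3.80 in AI and -4.70 to -3.01 in NT embryos. The FABP5 call was kept in 7 of 11 other settings and in 13 of 30 fits that left out 1 embryo. The rise was in ACSL6, another acyl-CoA synthetase (0.89 ± 0.14, adjusted p = 4.65e-06). In IVF against AI embryos PLIN2 and ME1 rose by 0.48 ± 0.13 and 0.83 ± 0.23, ELOVL1 by 0.43 ± 0.15 (adjusted p = 0.0217, kept in 7 of 11 other settings) and AGPAT1 by 0.25 ± 0.10 (adjusted p = 0.048, kept in 3 of 11). In the same comparison ACSL6 fell by 0.57 ± 0.14, and FABP3, the heart fatty acid carrier, fell by 1.00 ± 0.21 (adjusted p = 0.000224).

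Of 15 genes of fatty acid oxidation 7 were measured. ETFB and ETFA, which together pass electrons from acyl-CoA dehydrogenases to the respiratory chain, and ACAA1, the peroxisomal thiolase, were lowest in IVF embryos. Against AI embryos ETFB fell by 1.05 ± 0.15 (adjusted p = 3.83e-07), ETFA by 0.69 ± 0.12 (adjusted p = 1.92e-05) and ACAA1 by 0.67 ± 0.14 (adjusted p = 0.000215). The same 3 genes were higher in NT than in IVF embryos, by 0.57 ± 0.14, 0.38 ± 0.12 and 0.38 ± 0.14 (limma adjusted p = 0.00231, 0.0171 and 0.0378). These calls were kept in 11, 9 and 7 of 11 other settings. The ACAA1 call was kept in 20 of 30 fits that left out 1 embryo. ETFB was also lower in NT than in AI embryos by 0.48 ± 0.15 (adjusted p = 0.0331), which shrank to -0.06 on the deposited scale (adjusted p = 0.803). NT and IVF embryos and AI and IVF embryos share the IVF samples, so these values are not independent of each other.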

How the data were processed

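The authors deposited a log2 ratio of the dye channels per spot; intensities, scanner software, background correction and normalisation are not given in the sources used here. Per the labels, RNA of single embryos and donor cells was amplified linearly, with more rounds than the reference, and coupled to Cy3 and Cy5. From the 16416 spots of 92 arrays, a fill value of 16.61 (2657 cells) was set to missing, arrays were centred on their median, the sign of arrays that had the sample in Cy3 was turned, and duplicate spots, then the 2 arrays of each of the 46 samples, were averaged. Probes with a value in at least 0.5 of each kind of embryo and in both donor samples were tested (7992 of 8208); probes of one symbol were averaged into 4398 genes. Group means of all 46 samples were fitted with limma 3.58.1 in R 4.3.3 (2-sided, Benjamini-Hochberg over all genes, threshold 0.05), after checks on simulated data. "Called", "rose" and "fell" mean past this threshold. Correlations used 100000 permutations (Python 3.11.15, 2-sided), adjusted over 84 pairs, or over 28 pairs for the AI embryos without H. The 8 genes, the lists and the tests were chosen with earlier results of these data known. All 8 are named in every comparison between kinds of embryo, and list genes where called between them. Nothing says that embryos of a kind came from separate parents or cultures, so p values measure the spread between these samples. No hybridisation batch is given, so batch and kind cannot be told apart. The number of samples, above all the 2 of donor cells, limits the precision. Alternatives in scaling, dye, probe choice, filter, samples and weights are in the closing section. Promoter sequences were not used here.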

Additional observations from a re-analysis of the deposited data

Results flagged for a closer look

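Among the NT embryos labelled 2_ (8 embryos) and 3_ (7 embryos), 16 sets of values of the 8 genes were searched for a single embryo far from the rest, by the gap to its nearest neighbour over the whole range (Dixon's 95% limit, 0.526 for 8 and 0.568 for 7 embryos). Chance marks about 1 in 20 such sets, and 4 were marked. MSMO1 stood at 1.68 in NT embryo 2_3, with the next embryo of its prefix at -0.02, and both dyes gave it a high level (1.82 and 1.53). ACLY stood at 0.33 in NT embryo 3_1, with the next at 1.28, and its dyes gave 0.34 and 0.33. ACLY stood at 0.99 in NT embryo 2_7, with the next at 1.26. ABCA1, the mean of 4 probes that disagree, stood at -0.21 in NT embryo 2_8, with the next at 0.45. Each of these genes was within the range of the AI or IVF embryos at that level, except ACLY in embryo 3_1, which lay below all embryos of the other kinds.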

How the results depend on the processing

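Under other choices of scaling, dye, probes, filter, samples and weights, the falls of LSS, FDPS, MSMO1 and MYLIP in NT against IVF embryos passed in 11 of 11 and in 30 of 30 fits that left out 1 embryo. The rise of MYLIP in IVF over AI embryos passed in 11 of 11, and the fall of MSMO1 in the H embryos in 8 of 8. On arrays as deposited, genes called numbered 1997 for NT minus AI, 1755 for NT minus IVF, 698 for IVF minus AI and 7 for H minus other AI, and members called 0 for NT minus AI and 1 for AI minus donor cells. The sign turned there for LSS (0.23) and ABCA1 (0.14) in NT minus AI, NPC1 (0.056) and AGPAT1 (0.017) in NT minus IVF, MYLIP in H minus other AI (0.090) and ACLY in 2_ minus 3_ (-0.21). Other counts of genes for NT minus AI were 550 from Cy5 and 216 from Cy3 arrays, 167 with the NT embryos labelled 2_ and 178 with those labelled 3_ alone, which also gave 697 for NT minus IVF. For H minus other AI they were 14 after quantile normalisation, 17 from Cy5 and 11 from Cy3 arrays, 4 with only the groups compared and 9 with array weights. Members called for NT minus AI were 0 from Cy3 arrays and with NT 2_ alone, and 1 with NT 3_ alone and with only the groups compared; for IVF minus donor cells 1 from Cy3 arrays and with only the groups compared; and for IVF minus AI 3 with 1 probe per gene. Uncalled values that turned were ACLY in NT minus AI (-0.13 from Cy5 arrays, -0.029 without the H embryos, -0.017 with array weights), ACSL1 in IVF minus AI (-0.29 from Cy5 arrays, -0.047 with array weights), EBP in NT minus IVF (-0.060 from Cy3 arrays) and ABCA1 in NT minus AI (0.090 with 1 probe per gene). The cause was not tested.

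Sterol-enzyme pairs called in AI embryos were 1 instead of 3 from Cy3 arrays alone and with the first gene from Cy5 and the second from Cy3 arrays.

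Leaving out 1 sample, members called ran from 1 (without AI embryo 7 or 8 or NT embryo 2_8) to 4 for NT minus AI, from 1 to 2 for NT and for AI minus donor cells and stayed at 1 for IVF minus donor cells. Genes called ran from 7 (without H3, and 16 without H1) to 53 for H minus other AI, and from 1022 to 1024 for NT, 966 to 986 for IVF and 1067 to 1084 for AI minus donor cells. ACLY in NT minus AI ran from -0.0058 to 0.0895 and ACSL1 in IVF minus AI from -0.060 to 0.079. In H minus other AI, ACSL1 ran from -0.075 to 0.54 and MYLIP from -0.64 to 0.31.

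AI and IVF embryos share 7 embryo numbers, but nothing says that these pair them. With the number as a replicate block, 457 genes and 1 member (MYLIP) were called for IVF minus AI. Same-numbered embryos deviated from their kind's mean with r of -0.06 to 0.09. Whether they share an animal or a day of work was not tested.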
